A study of Mus musculus with 3 samples.

Results

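The Hox genes described here are the 38 genes of the Hoxa, Hoxb, Hoxc and Hoxd clusters that the array measured, out of 27724 genes in all. They were chosen by name alone: every probe whose gene name was Hoxa, Hoxb, Hoxc or Hoxd followed by a number, which gave 50 probes. The cells were mouse C3H10T1/2, a fibroblast-like line of embryonic origin with which agents are assayed for cell transformation. They were left untreated, or received hexavalent chromium, Cr(VI), at 0.01 uM or at 1 uM for 48 h from 24 h after seeding 2000 cells per flask. The cultures were kept to day 15 and then gave total RNA. Each group had 3 flasks and 1 array, and the labels do not say whether flasks were pooled. With 1 array per group there is no replicate check, so no difference below was tested. Each is a difference between 2 single arrays.

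Hox genes encode homeodomain transcription factors that set the identity of body segments and limb parts along the head to tail axis. They lie in 4 clusters, and genes at the same relative place in different clusters form a numbered paralog group, with low numbers used more anteriorly and high numbers more posteriorly. Fibroblasts are known to keep a Hox pattern that reflects the body site they came from, and this pattern is carried through culture. The question addressed was which clusters and paralog groups were seen in this line, and whether the pattern was the same on the untreated, 0.01 uM and 1 uM arrays.

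In the build mm9 coordinates of the array files, the 14 Hoxa probes of 11 genes covered 103.3 kb of chromosome 6 and the 15 Hoxb probes of 10 genes covered 171.1 kb of chromosome 11. The 9 Hoxc probes of 8 genes covered 107.8 kb of chromosome 15, and the 12 Hoxd probes of 9 genes covered 95.1 kb of chromosome 2. The probes on which the results turn are shown by the first 30 of their 60 bases, as the array carries them, with the intervals that the array files give. The probes of the Hoxc genes below lie on the plus strand and those of the Hoxa genes on the minus strand.
Hoxc9, chr15:102814735-102814794: tgcaaactcttgcgatgtgggagggttaag
Hoxc4, chr15:102866541-102866583: ttctttccttctttagccttccttcccttt
Hoxc6, chr15:102842032-102842093: tcgaacgtgaccgtttctgtgtgaatattt
Hoxc13, chr15:102758794-102758853: tataaacttctttaaaggagatagagggtt
Hoxa7, chr6:52165626-52165685: gacagttggaaaagcgtctttaagagactc
Hoxa10, chr6:52181656-52181715: gcaggtttgtttatacatgtggaactggtg

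Signals are given as log2 of the processed signal relative to the 75th percentile of all probes of the same array, so 0 is the level of that percentile. Signals of different genes come from different probes and were not compared as amounts of RNA. A gene counted as seen where a probe was flagged well above background by the scanner software. On this scale 8 of the 38 Hox genes were seen in untreated cells, 8 at 0.01 uM and 6 at 1 uM. Over all genes the share was 42.9% in untreated cells, 38.8% at 0.01 uM and 43% at 1 uM.

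The seen genes belonged to 2 clusters. In the Hoxa cluster 6 of 11 genes were seen on every array, among them Hoxa2, Hoxa4, Hoxa5, Hoxa7 and Hoxa10. In the Hoxc cluster 2 of 8, Hoxc4 and Hoxc9, were seen on the untreated and 0.01 uM arrays and 0 on the 1 uM array. No Hoxb or Hoxd gene was seen on any of the 3 arrays. Paralog groups 2, 4, 5, 7, 9 and 10 were among those seen on the untreated and 0.01 uM arrays, and of these all but group 9 were seen on the 1 uM array. No member of groups 3, 6, 8, 11, 12 or 13 was seen on any of the arrays.

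**Figure D1:**
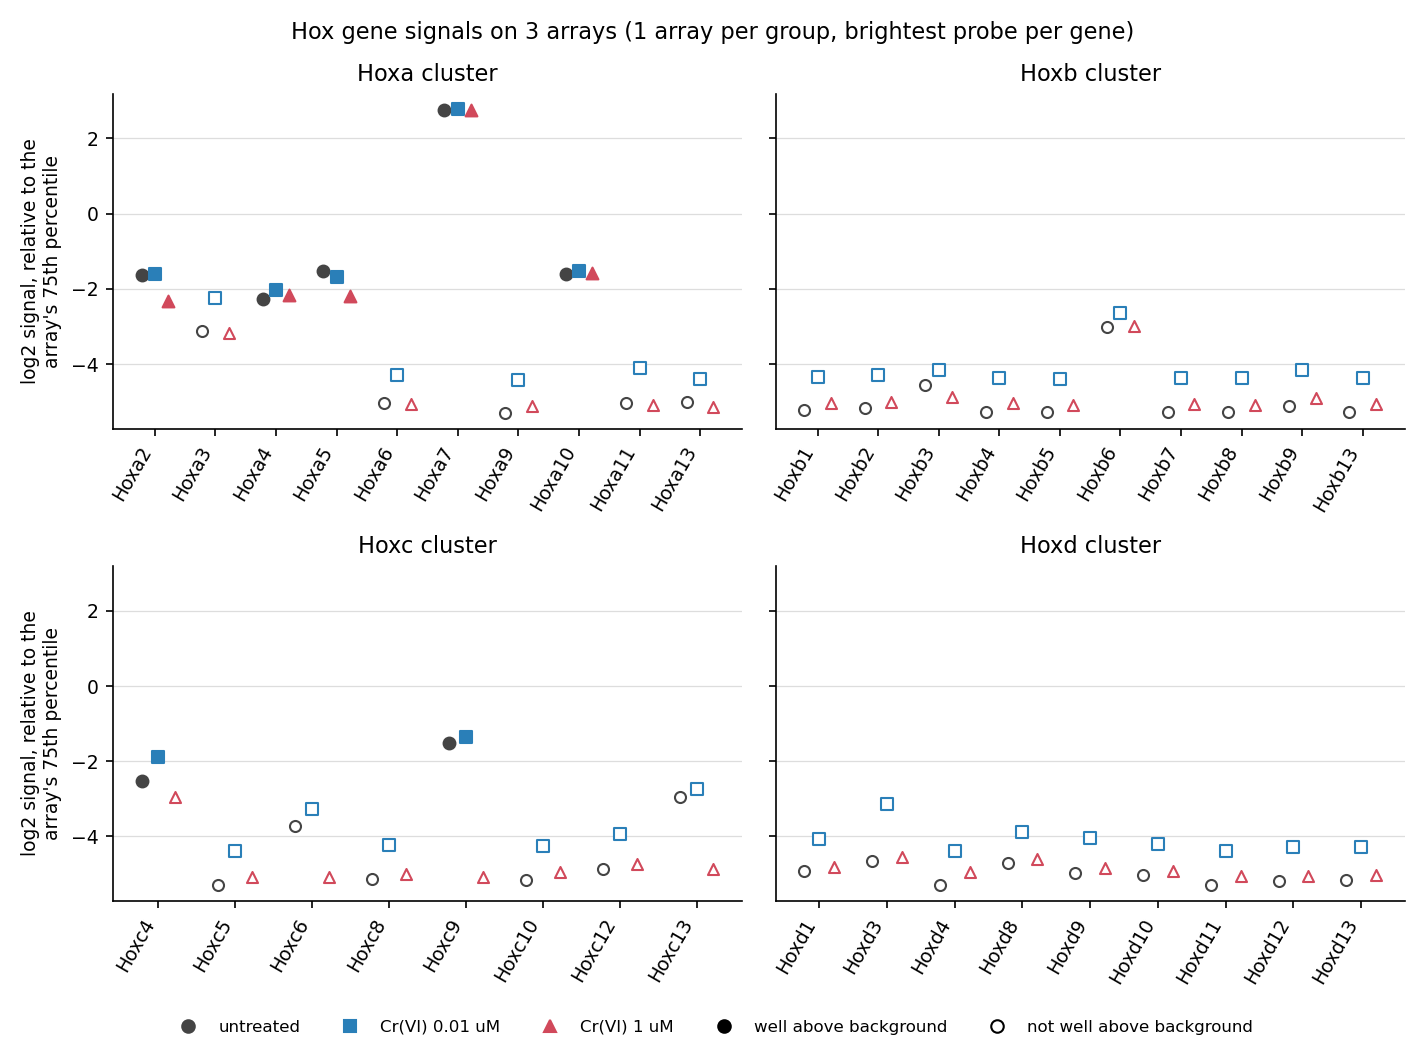
Log2 signal of the Hox genes reported here on the untreated, 0.01 uM and 1 uM arrays, by cluster, with 1 point per array and no error bar because each group had 1 array. Filled points are well above background and open points are not; Hoxa7 stands near 2.8 on all 3 arrays, and Hoxc9 is filled on 2 arrays and at the dim level on the 1 uM array.

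The 30 Hox genes that were never well above background, here called dim, lay between -5.31 and -2.94 in untreated cells, between -4.43 and -2.24 at 0.01 uM and between -5.14 and -2.98 at 1 uM. Their medians were -5.12, -4.27 and -5.02 in the same order. The dim level of the 0.01 uM array was therefore the highest of the 3 on this scale, and differences between dim values were not read. The lowest signals of any probe well above background were -2.98, -2.11 and -2.80 in that order. The scanner software had put a surrogate value in place of the measured one for 32 Hox probes in untreated cells, 33 at 0.01 uM and 38 at 1 uM.

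A second scanner flag, positive and significant against background, is less strict. By it 16 Hox genes were seen in untreated cells, 16 at 0.01 uM and 10 at 1 uM. The share of all genes that passed this flag was not counted, so these counts have no background to be read against. By cluster the Hox counts were 10, 9 and 7 in Hoxa and 4, 4 and 1 in Hoxc. They were 2, 1 and 1 in Hoxb and 0, 2 and 1 in Hoxd. Hoxa6, Hoxa11 and Hoxa13 passed this flag in untreated cells and not at 1 uM. Hoxa3, of the anterior group 3, passed this flag on all 3 arrays, with -3.13 in untreated cells, -2.24 at 0.01 uM and -3.17 at 1 uM. Hoxb6, a trunk-level gene, passed it on all 3 as well, with -3.02, -2.65 and -2.98 in that order, and was the one Hoxb gene to do so. A further Hoxb6 probe, with -5.27, -4.38 and -4.56, passed it at 1 uM alone, so the 2 probes of this gene disagree.

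Hoxa7, a trunk-level member of the antennapedia type, was the brightest Hox probe. Its signal was 2.76 in untreated cells, 2.79 at 0.01 uM and 2.77 at 1 uM. It stood above 73.3%, 70.1% and 74.4% of the seen genes of those arrays. The 3 values differed by 0.03 at most. The difference of 1 uM from untreated was 0.01, with a standard error of 0.20 from the scanner software's error model, which covers technical error only.

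Hoxa10, known for its part in uterine, limb and lumbar patterning, gave -1.61 in untreated cells, -1.52 at 0.01 uM and -1.58 at 1 uM. Hoxa4, an anterior trunk gene, gave -2.26, -2.02 and -2.17 in that order. For neither gene was any pair of arrays further apart than 1 error-model standard error (0.29 for Hoxa10 and 0.33 for Hoxa4, 1 uM against untreated). With scaling on spike-in controls Hoxa7, Hoxa10 and Hoxa4 were 0.69, 0.72 and 0.77 higher at 1 uM than untreated, where the median of all genes compared was 0.65 higher. A further Hoxa4 probe was dim on every array (-4.47, -4.29 and -5.02), so the 2 probes of this gene disagree on whether it is seen.

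Hoxa2, which acts in the hindbrain and its neural crest, and Hoxa5, needed for lung and cervical skeletal patterning, were lower on the 1 uM array. Hoxa2 gave -1.62 in untreated cells, -1.61 at 0.01 uM and -2.31 at 1 uM. Hoxa5 gave -1.52, -1.68 and -2.19 in that order. For both genes the 1 uM array was the lowest. The differences of 1 uM from untreated were -0.69 (SE 0.32) for Hoxa2 and -0.67 (SE 0.30) for Hoxa5. These sizes are a little over 2 of those technical standard errors, and the spread between cultures is unknown. Under scaling on spike-in controls the same differences were -0.01 and 0.01, where the median of all genes compared was 0.65, so both differences lay below that of the typical gene under either scaling. With another background correction, normexp, they shrank to -0.31 and -0.27, where the median of all genes was -0.02. Both genes were faint at 1 uM, above 3.69% (Hoxa2) and 4.95% (Hoxa5) of the seen genes there.

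Hoxc9, which specifies thoracic identity in the skeleton and in motor neurons, was the member with the largest difference. Its processed signal was 245.4 units in untreated cells, 200.5 units at 0.01 uM and 22.2 units at 1 uM, where the value is a surrogate. On the relative scale these are -1.51, -1.36 and -5.08. The 1 uM value lay 0.07 below the median of the never-seen Hox genes of that array, while the untreated and 0.01 uM values lay 3.61 and 2.91 above theirs. Since the 1 uM spot was not well above background, the fold is a lower bound, taken against the lowest signal well above background there. Hoxc9 was at least 2.46-fold lower at 1 uM than untreated, and at least 2.72-fold lower at 1 uM than at 0.01 uM. With spike-in scaling the bound against untreated was -0.62 on the log2 scale, short of 2-fold. In bulk RNA, fewer cells that express a gene and less of its RNA per cell cannot be told apart.

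Hoxc4, the most anterior gene of its cluster, gave -2.53 in untreated cells, -1.89 at 0.01 uM and -2.94 at 1 uM. It was not well above background on the 1 uM array but passed the less strict flag there, 2.08 above the median of the never-seen Hox genes. Its difference of 1 uM from untreated was -0.41 (SE 0.45), within 1 error-model standard error. Taken against the lowest signal well above background, the bound was 1.21-fold lower, which is within that error too. With scaling on spike-in controls the difference was 0.27 and the bound 0 on the log2 scale. At 0.01 uM it was 0.64 higher than untreated (SE 0.41).

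Hoxc6 and Hoxc13 were well above background on none of the arrays, so no fold is given. Hoxc6, a thoracic and forelimb-level gene, had processed signals of 53.2 units in untreated cells, 53.0 units at 0.01 uM and 22.3 units at 1 uM. Hoxc13, which is needed for hair and nail formation, had 91.0, 78.0 and 25.97 units in that order. These units are not scaled for the brightness of each array. On the relative scale they are -3.71, -3.28 and -5.08 for Hoxc6 and -2.94, -2.73 and -4.86 for Hoxc13. The 1 uM value of each gene is a surrogate. Both passed the less strict flag on the untreated and 0.01 uM arrays and neither on the 1 uM array. Each of these 4 Hoxc genes was measured by 1 probe in 1 spot. The other 4 Hoxc genes, Hoxc5, Hoxc8, Hoxc10 and Hoxc12, passed neither flag on any array.

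**Figure D2:**
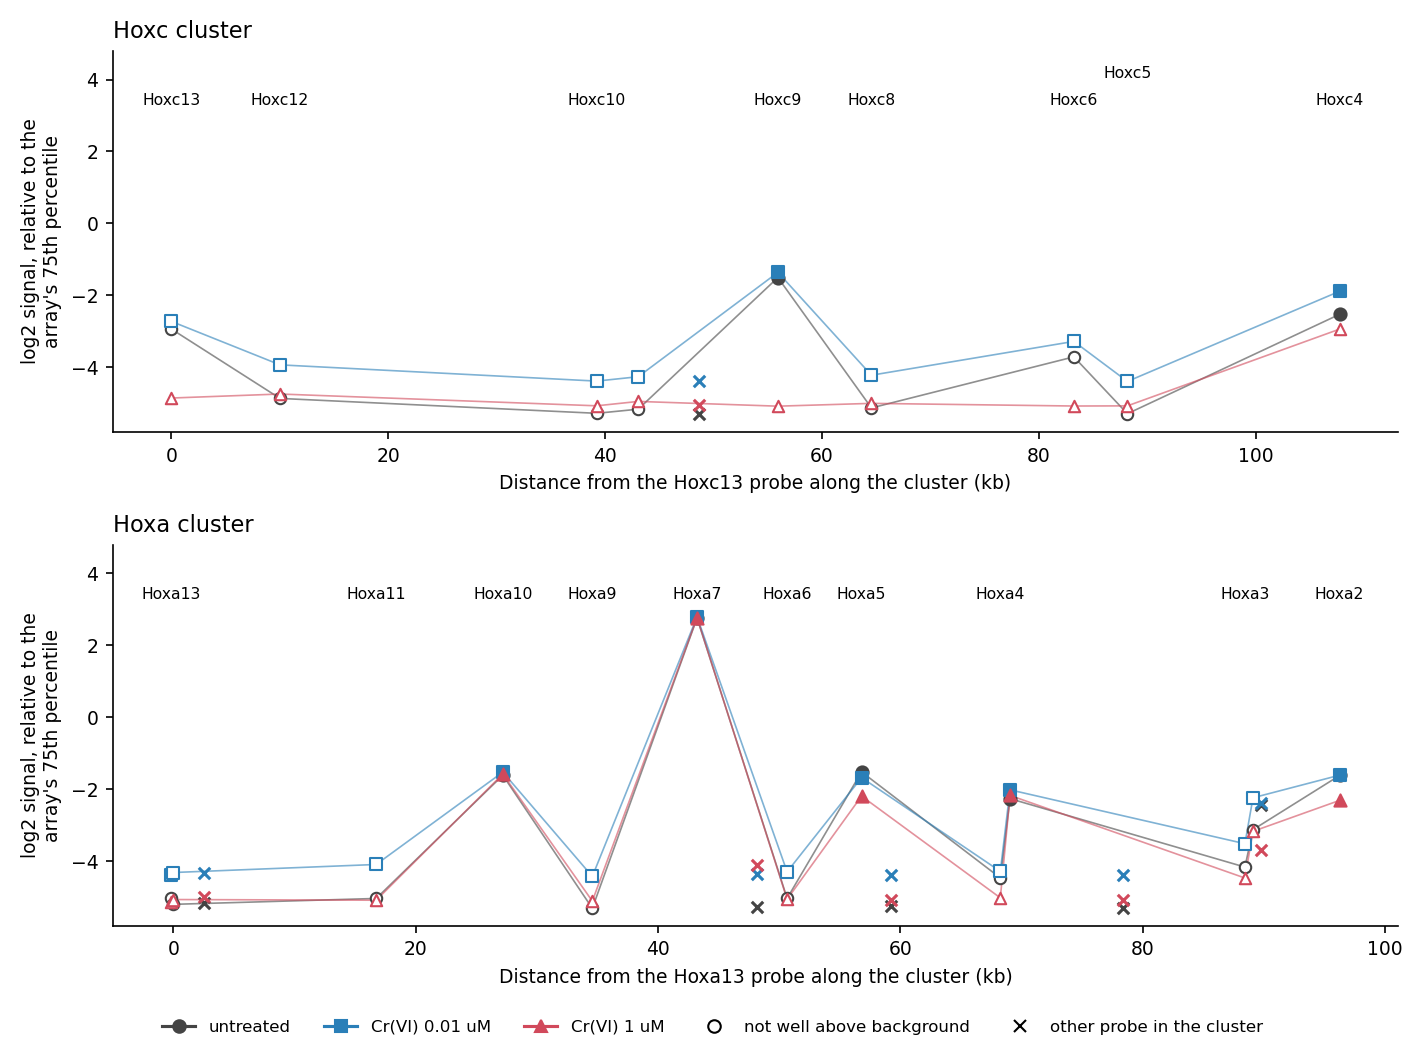
Log2 signal of the probes of genes reported here along the Hoxc and Hoxa clusters, by distance in kb from the probe of the group 13 gene, on the 3 arrays. In the Hoxc cluster the untreated and 0.01 uM arrays stand above the dim level at Hoxc13, Hoxc9, Hoxc6 and Hoxc4, and the 1 uM array at Hoxc4 alone. In the Hoxa cluster the same probes are well above background on all 3 arrays. Crosses mark probes of other genes inside a cluster.

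For 1 uM against untreated, 8 Hox genes could be compared. At 2-fold, 0 of 8 were higher (5.57% of 12450 genes compared) and 1 of 8, Hoxc9, was lower (4.86% of all). At 1.5-fold, 0 of 8 were higher (13.8% of all) and 4 of 8 were lower (13.4% of all), among them Hoxa2, Hoxa5 and Hoxc9. The median log2 difference was -0.47 over the 8 Hox genes and -0.02 over all genes compared. Of the 8 Hox genes seen on the untreated array 2 were not seen on the 1 uM array, against 4.65% of all genes seen, and 0 of the 30 others were gained, against 3.58% of all. The 2 genes not seen at 1 uM were Hoxc9 and Hoxc4, and the difference of Hoxc4 was within its technical error. In all 36 of 38 Hox genes had the same state on both arrays, against 96.0% of all genes. The compared Hox genes other than Hoxa7 were faint. In untreated cells they stood above 3.5% (Hoxc4) to 13.7% (Hoxc9) of seen genes. The shares over all genes, here and below, include many brighter genes and were not matched for signal.

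For 0.01 uM against untreated, the same 8 genes were compared. At 2-fold 0 of 8 were higher (0.26% of 11915 genes compared) and 0 of 8 were lower (0.168% of all). At 1.5-fold 1 of 8, Hoxc4, was higher (0.898% of all) and 0 of 8 were lower (1.13% of all). The median was 0.06 over the 8 Hox genes and 0.04 over all. All 38 Hox genes had the same state on both arrays: 0 of 8 were lost, against 9.84% of all genes seen, and 0 of 30 were gained, against 0.164%.

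For 1 uM against 0.01 uM, at 2-fold 0 of 8 were higher (5.2% of 12059 genes compared) and 1 of 8, Hoxc9, was lower (6.45% of all). At 1.5-fold 0 of 8 were higher (12.4% of all) and 3 of 8 were lower (17.3% of all), namely Hoxa2, Hoxc4 and Hoxc9. The median was -0.54 over the 8 Hox genes and -0.04 over all. Of the 8 genes 2 were not seen on the 1 uM array, against 1.56% of all genes seen at 0.01 uM, and 0 of 30 were gained, against 7.81%. The lowest flagged signal of the 0.01 uM array was the highest of the 3 (-2.11, against -2.98 untreated and -2.80 at 1 uM). The lost and gained shares that involve that array, here and above, were not corrected for this. These 3 comparisons share arrays, and with 8 genes the counts of 1 and 2 rest on Hoxc9 and Hoxc4 alone.

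**Figure D3:**
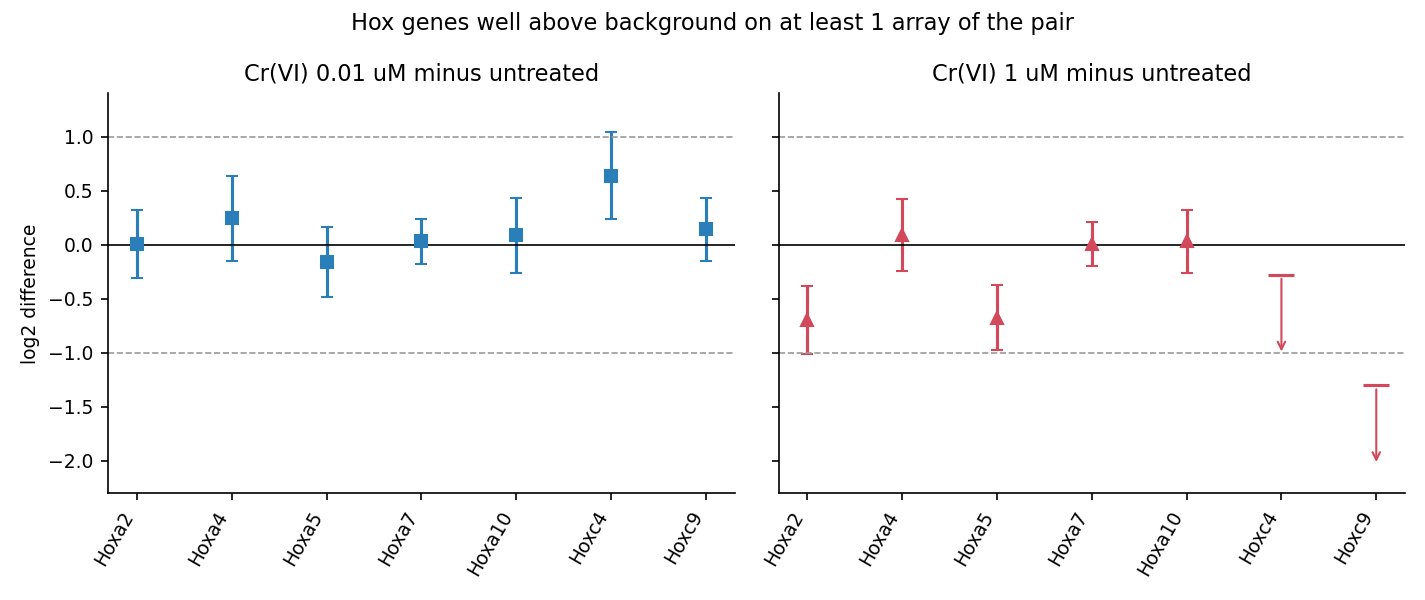
Log2 difference of each dose from untreated for Hox genes reported here that were well above background on an array of the pair. Bars are 1 standard error from the scanner software's error model, short lines with arrows are bounds where the dosed array was not well above background, and dashed lines mark 2-fold; Hoxc9 at 1 uM lies past the lower line.

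Over the 38 Hox genes the signals of the 1 uM and untreated arrays had a Pearson correlation of 0.91 and a Spearman correlation of 0.70. The 0.01 uM and untreated arrays had 0.99 and 0.95. Among the 30 genes outside the Hoxc cluster the Pearson correlation was 0.99 for both pairs, and the Spearman correlation was 0.83 for 1 uM and untreated and 0.93 for 0.01 uM and untreated. Among the 8 Hoxc genes the Pearson correlation was 0.34 and the Spearman correlation 0.02 for 1 uM and untreated, and 0.99 and 1.00 for 0.01 uM and untreated. Over all 27724 genes the Pearson and Spearman correlations were 0.98 and 0.92 for 1 uM and untreated, and 0.99 and 0.94 for 0.01 uM and untreated. These are descriptions, since the points of an array share its RNA and its dim level, and few members stand above that level. The Hoxc cluster holds Hoxc9, Hoxc6 and Hoxc13, so the split by this cluster restates their low values at 1 uM. Hoxc5, Hoxc8, Hoxc10 and Hoxc12 are surrogate values on every array, so their ranks carry no reading.

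Other genes in and beside the clusters were looked at for the same pattern. Inside the Hoxa cluster 1 of 5 further probes was seen, on the untreated array only. It belongs to Hoxaas2, a noncoding transcript of the strand opposite to the Hoxa genes, and gave -2.45 in untreated cells, -2.40 at 0.01 uM and -3.68 at 1 uM. Inside the Hoxb, Hoxc and Hoxd clusters the 1, 1 and 2 further probes were dim on every array.

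Within 1 Mb of the Hoxc cluster, 34 other genes could be compared between 1 uM and untreated. Of these 34 genes 1 was at least 2-fold higher (5.57% of all genes compared) and 2 were at least 2-fold lower (4.86% of all), with a median of -0.05. These counts are near the shares over all genes. Calcoco1, a coiled-coil coactivator 221.3 kb from the cluster, gave -1.17 in untreated cells, -1.56 at 0.01 uM and -3.92 at 1 uM. It was not well above background there and was at least 3.11-fold lower than on the untreated array. Itgb7, an integrin subunit 712.3 kb away, was 3.86-fold lower (2.39 at 1 uM and 4.34 untreated). Pde1b, a cyclic nucleotide phosphodiesterase 493.8 kb away, was 2.10-fold higher. Within 1 Mb of the Hoxa, Hoxb and Hoxd clusters, 0 of 8, 0 of 32 and 0 of 8 genes were 2-fold apart in either direction between these arrays. The shares over all genes are those given above, 5.57% higher and 4.86% lower.

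PBX, MEIS and PREP proteins are the cofactors with which Hox proteins bind DNA. Of 9 cofactor genes 6 were seen on each of the 3 arrays, and 0 were 2-fold apart in any pair. Over all genes compared at 1 uM against untreated, 5.57% were 2-fold higher and 4.86% were lower. Meis2 gave 3.71 in untreated cells, 3.54 at 0.01 uM and 3.00 at 1 uM. Its 2 other probes differed by -0.65 and 0.32 at 1 uM against untreated, so they disagree on the direction. Pbx3 gave -0.29, -0.29 and 0.33. Meis1 gave -1.85, -1.43 and -2.15. The median difference of the 6 was -0.21 for 1 uM against untreated and 0.04 for 0.01 uM against untreated.

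Other transcription factors that mark position in limb, body wall and face were counted in the same way. Of 32 such genes 13 were seen in untreated cells, 13 at 0.01 uM and 15 at 1 uM. The paired-related genes Prrx1 and Prrx2, of limb and craniofacial mesenchyme, were bright on all 3 arrays, with 3.97, 4.05 and 4.11 for Prrx1 and 4.90, 5.11 and 4.53 for Prrx2. For Prrx1 the probe shown differed by 0.14 between 1 uM and untreated. Its 4 other probes differed by 0.08 to 1.13, so they disagree on the size. Tbx3, Tbx15, Tbx18, Foxd1 and Foxf2 were seen on all 3 arrays as well. The forelimb gene Tbx5, the hindlimb genes Tbx4 and Pitx1 and the posterior limb gene Hand2 were dim on all 3. Other genes of the list, such as Lhx2, Msx1 and Dlx5, were seen on all 3, so the list as a whole was not dim. Tbx2 was not well above background on the untreated (-2.93) or 0.01 uM (-2.52) array and was seen at -1.81 on the 1 uM array, at least 2.19-fold higher than untreated. Barx1, of facial and stomach mesenchyme, was seen on the 1 uM array alone, at least 1.68-fold higher than untreated. Of 15 genes of the list compared between 1 uM and untreated, 1 was 2-fold higher (5.57% of all) and 0 were lower (4.86% of all). The median difference of the list was -0.11 for 1 uM against untreated and 0.08 for 0.01 uM against untreated.

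**Figure D4:**
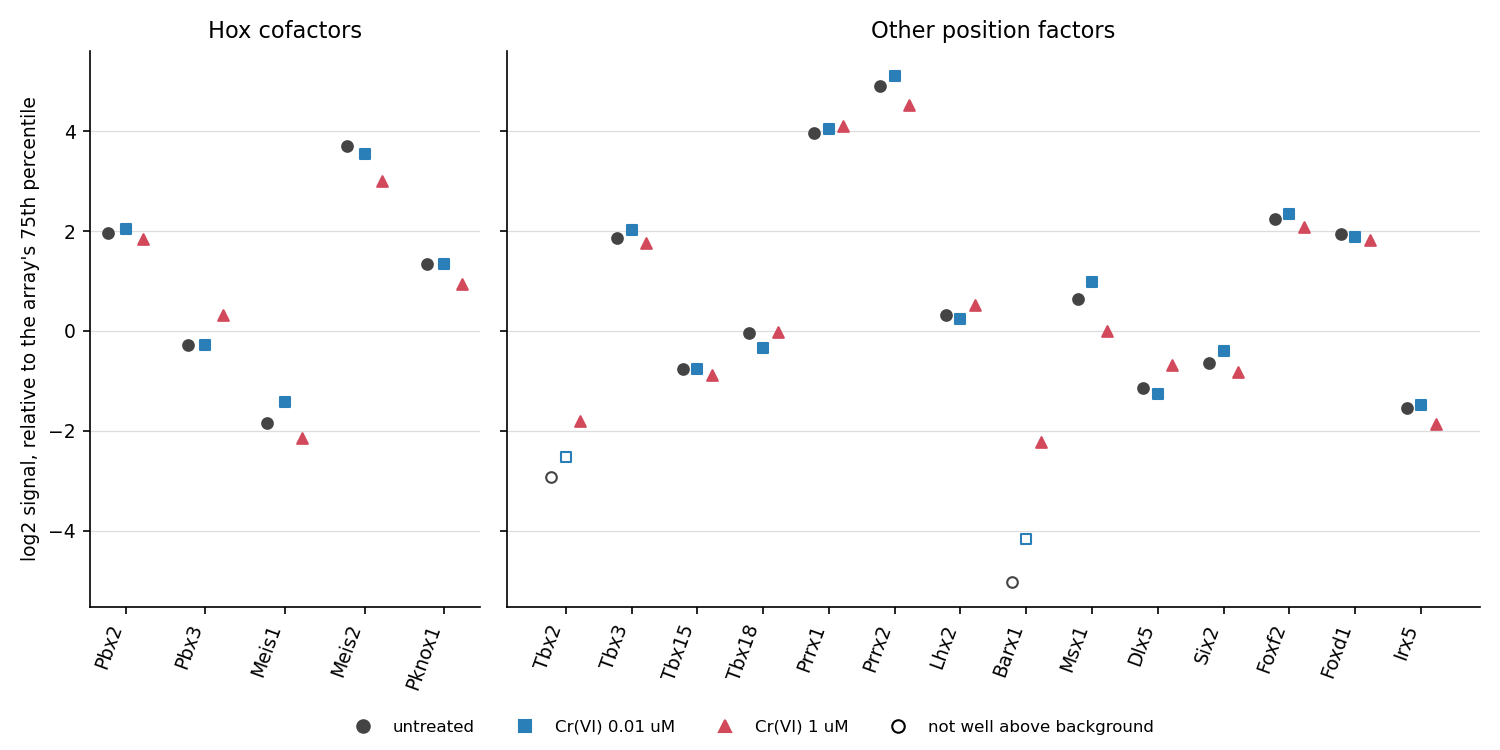
Log2 signal of the Hox cofactors and other position factors reported here that were well above background on an array, for the untreated, 0.01 uM and 1 uM arrays. Open points are not well above background; Tbx2 and Barx1 are filled on the 1 uM array alone, and the other genes are filled on all 3 arrays.

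Cdx factors and retinoic acid set where Hox genes are switched on in the embryo. Of 20 genes of this list 7 were seen on each array and 0 were 2-fold apart in any pair, with a median of -0.37 for 1 uM against untreated. At 1 uM against untreated 5.57% of all genes compared were 2-fold higher and 4.86% were lower. Polycomb proteins hold Hox clusters silent and trithorax proteins keep them active. Of 32 such genes 32 were seen in untreated cells, 31 at 0.01 uM and 31 at 1 uM. Between 1 uM and untreated 0 of 32 were 2-fold higher (5.57% of all genes compared) and 2 were lower (4.86% of all). These counts are close to the shares over all genes. Cbx7, a polycomb subunit that reads methylated histone, gave 1.07 in untreated cells, 0.76 at 0.01 uM and -0.73 at 1 uM, 3.47-fold lower at 1 uM than untreated. Ezh1, a histone methyltransferase of the second polycomb complex, gave -0.20 in untreated cells and -0.28 at 0.01 uM, and was 2.46-fold lower at 1 uM than untreated. Against the 0.01 uM array 1 of 31 genes compared was 2-fold higher at 1 uM (5.2% of all), namely Pcgf6, by 2.28-fold. In the same comparison 2 of 31 were lower (6.45% of all). The median of the list was -0.07 for 1 uM against untreated. Whether these differences have a part in those of the Hox genes was not tested.

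Marker genes were read on the same arrays as a check of the labelled cell type. Of 14 fibroblast markers 14 were seen in untreated cells, 14 at 0.01 uM and 13 at 1 uM, with the collagen genes Col1a1 and Col1a2 saturated. The marker not seen at 1 uM was Thy1, a fibroblast surface glycoprotein, with 2.84 in untreated cells, 3.41 at 0.01 uM and -3.56 at 1 uM, at least 50.2-fold lower than untreated. Fn1, the matrix protein fibronectin, was also lower, at least 2.20-fold at 1 uM against untreated and 2.40-fold at 1 uM against 0.01 uM. Lum, a matrix proteoglycan, was 2.45-fold higher at 1 uM than at 0.01 uM. Over the fibroblast markers not saturated on both arrays the median difference was -0.37 for 1 uM against untreated and 0.08 for 0.01 uM against untreated. Xist, transcribed from the inactive X chromosome, gave 4.14, 4.20 and 3.67, and the 4 Y-linked genes Ddx3y, Eif2s3y, Kdm5d and Uty were well above background on none of the 3 arrays. The 3 pluripotency markers were dim on all 3.

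Markers of other cell types were mostly dim. Of 10 blood cell markers 3 were seen in untreated cells, 3 at 0.01 uM and 4 at 1 uM, and the defining gene Ptprc was dim on all 3. Cd68, a lysosomal glycoprotein, gave 2.08, 2.01 and 2.04 in that order, and Cd14, a lipopolysaccharide coreceptor, gave 2.16, 2.40 and 2.59. Lyz2, a lysozyme, gave -1.07, -0.96 and -1.39. Aif1 was seen at 1 uM alone, at least 1.61-fold higher than untreated. The summed processed signal of the 10 blood cell markers was 6641, 5244 and 8295 units in that order. Summed signals, here and below, include dim probes and are not scaled for the brightness of each array. They were therefore not compared between arrays. Of 5 endothelial markers 0, 0 and 1 were seen, the one being Cdh5 (-4.01, -3.80 and -1.10), while Pecam1, Kdr, Tek and Emcn were dim on all 3. The summed signals were 133, 145 and 448 units. Of 7 epithelial markers 0, 0 and 1 were seen, the one being Krt19 (-5.05, -4.20 and -1.71), while Cdh1 and Epcam were dim on all 3. The summed signals were 171, 217 and 399 units. Of 6 neural and muscle markers 2, 1 and 2 were seen, namely Tubb3 on all 3 arrays and Des on the untreated and 1 uM arrays. Whether any such cells were present, and whether they have a part in the Hox differences, was not tested.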

How the data were processed

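Total RNA of 3 samples was labelled with Cy3 and hybridised to 3 arrays of 1 slide. Per the file headers, the authors took the intensity of each spot with the software Agilent Feature Extraction 10.5.1.1. A deposited table of log2 values differed from log2 processed signal by 1 constant per array (9.45 for untreated, 9.01 for 0.01 uM, 9.56 for 1 uM), within 0.01 for over 99.8% of 41167 probes. Its column medians were -4.23, -3.96 and -4.03. The sources used here do not say how it was made.

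Control and outlier-flagged spots were left out, spots of a probe were averaged as log2, and each array was set relative to its 75th percentile of all probes. A gene was read from its brightest probe. Of the 50 Hox probes 46 matched a RefSeq accession (GRCm38.p6 table, names only), all under the same symbol. Genes entered a comparison if the scanner flagged that probe well above background on either array. If one array lacked the flag, a bound was given, against the lowest flagged signal of that array or the dim probe's own signal if higher. Replicate spots had a median SD of 0.06 in log2. Precision is limited by having 1 array per group.

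The Hox genes, lists and alternatives were chosen with earlier results of these data known. Hox genes seen on an array are named, except that some genes meeting the rules are not reported here. List genes are named where 2-fold apart or defining a cell type. The cofactors and the Prrx, Tbx, Fox, Pitx1, Hand2, Lhx2, Msx1, Dlx5 and Barx1 genes were named after their values were seen. Alternatives were run with Python 3.11.15 (numpy 2.4.6, pandas 2.3.3) and limma 3.58.1 in R 4.3.3. The counting was tested on simulated data.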

Additional observations from a re-analysis of the deposited data

Results flagged for a closer look

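Hoxc9 lay on opposite sides of its untreated level at the 2 doses. It was 0.14 higher on the log2 scale at 0.01 uM than untreated (SE 0.29 from the scanner software's error model), which is within that error, and at least 1.30 lower at 1 uM than untreated. The difference of 1 uM minus 0.01 uM was -1.44 as a bound. It drew attention because the doses differ in direction and by more than 2-fold. With 1 array per dose the difference was not tested.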

How the results depend on the processing

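No paired analysis was possible because each group has 1 array, and for the same reason no array could be left out. With the less strict detection flag 16 Hox genes were seen in untreated cells, 16 at 0.01 uM and 10 at 1 uM, in place of 8, 8 and 6. The share of all genes by that flag was not counted. For 1 uM against untreated, the count of Hox genes 2-fold lower was 0 with spike-in scaling, 0 where both arrays had to be well above background (which leaves out Hoxc9 and Hoxc4), 3 with no filter on dim probes and 4 at 1.5-fold, in place of 1. The median reversed to 0.0047 with spike-in scaling, which moves the median of all genes to 0.65, and to 0.12 over all 38 genes with no filter. For 0.01 uM against untreated, 1 gene was higher with no filter and 1 at 1.5-fold, in place of 0, and the median was 0.88 with no filter, where dim values decide it. For 1 uM against 0.01 uM, the count of lower genes was 2 with quantile normalization, 0 where both arrays had to be well above background, 4 with no filter and 3 at 1.5-fold, in place of 1. The other 95 counts and medians, and 248 values of single genes, stayed near their reported values. A further 12 values of single genes moved by over 1 median standard error of the scanner software's error model. Among these 12, Hoxa5 at 1 uM against untreated changed sign, from -0.67 to 0.01 with spike-in scaling. Hoxc9 at 1 uM against untreated ran from -1.42 to -0.62 over the alternatives, the last with spike-in scaling. Among all genes 2-fold apart at 1 uM against untreated, 53.4% were higher, against 94.7% with spike-in scaling and 39.2% with normexp. At 0.01 uM against untreated 60.8% were higher, against 92.8% with spike-in scaling, 72.3% with quantile, 46.8% with cyclic loess and 48.3% with the percentile of detected probes. At 1 uM against 0.01 uM 44.6% were higher, against 79.2% with spike-in scaling and 57.6% with the percentile of detected probes. Signal over background limits 30 of the 38 genes, for which no difference could be read.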
